A study of Mus musculus with 4 samples.

Results

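The P2X and P2Y purinergic receptors are the membrane proteins through which cells sense extracellular nucleotides. Expression of 10 receptor genes was followed here, 5 coding for P2X channels (P2rx3, P2rx4, P2rx5, P2rx6 and P2rx7) and 5 for P2Y receptors (P2ry1, P2ry6, P2ry12, P2ry13 and P2ry14). They were taken by gene symbol, and all 10 were found among the 21883 features of both deposited tables. The samples were wild-type male mice of the BL6/C57 strain, young adults, in which the sciatic and femoral nerves of the left side had been transected 7 days before RNA was taken. RNA came from 2 tissues, dorsal root ganglia (DRG, where sensory neurons have their cell bodies) of levels L4-L6 and the dorsal part of the lumbar cord, each from the operated (ipsilateral) and the opposite (contralateral) side. The 4 groups were ipsilateral DRG, contralateral DRG, ipsilateral dorsal cord and contralateral dorsal cord, with 1 library each. Contralateral tissue came from operated animals too and is not tissue of an uninjured mouse. The sources used here do not say whether a library pools animals.

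P2X receptors are channels that open when ATP binds, and P2Y receptors are G protein-coupled receptors for ATP, ADP, UTP, UDP or sugar nucleotides. In the pain pathway P2X3 is best known from nociceptors (neurons that respond to damaging stimuli), where it forms channels alone or together with P2X2. In the cord, microglia carry P2X4, P2X7, P2Y6, P2Y12 and P2Y13 and use them to sense nucleotides released by other cells.

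The unit of level is FPKM, a fragment number divided by transcript length and by library size, which makes genes of unequal length comparable within a library. The main measure was the log2 ratio of (ipsilateral FPKM + 1) to (contralateral FPKM + 1). Measured genes are those that reached 1 FPKM on at least 1 side of a tissue, and the words 2-fold higher or lower refer to a ratio beyond 1 or -1 on this log2 scale. With 1 library per group, no difference could be checked against replicates and none was tested between conditions. Intervals are 95% intervals of the plain FPKM ratio, derived from the test statistic in the authors' deposited table, and leave out variation between animals.

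Some marker genes separated the labelled tissues, and others were high in both. All 14 sensory neuron markers were measured in DRG, while Scn10a, Scn11a, Mrgprd and Trpv1 were at or below 0.0975 FPKM in both cord libraries. Of the 14, 8 were measured in cord, among them Nefh (193 FPKM ipsilaterally and 165 contralaterally) and Tubb3 (140 and 85.3 FPKM). The inhibitory neuron genes Slc32a1 and Gad1 reached 54.9 and 45.8 FPKM on the ipsilateral and 70.3 and 91.8 FPKM on the contralateral side of the cord, against at most 0.328 FPKM in either DRG library. Of the 6 cord neuron markers, 2 were measured in DRG. These were Slc17a6 (95.6 FPKM ipsilaterally and 85.7 contralaterally) and Rbfox3 (46.5 and 74.7 FPKM). Under 1 FPKM, Slc32a1, Gad1 and Slc6a5 were lower in ipsilateral DRG (0, 0.145 and 0.0215 FPKM) than in contralateral (0.264, 0.328 and 0.523 FPKM). Gad2 was nearly level (0.102 and 0.0985 FPKM). Cell type markers also differed between sides. Microglia and macrophage markers summed to 316 FPKM in ipsilateral and 147 in contralateral DRG, with 18 of 18 measured markers above a log2 ratio of 0 (median 1.34). In cord they summed to 1050 FPKM ipsilaterally and 250.2 contralaterally, with 17 of 17 above 0 (median 1.92), and Ms4a7 was listed at 0 contralaterally. Ctss alone gave 360 and 71.9 FPKM of these cord sums. The marker lists of other glia had medians closer to 0, at 0.06 and 0.04 for satellite and Schwann cells, -0.00 and 0.08 for astrocytes and 0.34 and -0.00 for oligodendrocytes in DRG and cord. The DRG astrocyte median hides unlike members. The authors' deposited table calls Slc1a2 (2.34 against 7.98 FPKM) and Aqp4 (2.04 against 5.10 FPKM) lower and Aldh1l1 (11.5 against 5.22 FPKM) higher there. Of the 7 oligodendrocyte markers, Mog, Olig1 and Olig2 were under 1 FPKM in DRG and are not in that median, and each was lower ipsilaterally. In bulk RNA, more cells of a type cannot be told apart from more RNA per cell.

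In DRG, P2rx3 stood far above every other receptor gene and was higher on the injured side, P2rx6 was lower, and P2ry13 was higher from a low level. Of the 9 measured receptor genes, 0 were at least 2-fold higher, where 3.04% of all measured features were, and 0 were at least 2-fold lower, where 0.784% of all were. The authors' deposited table calls 1 of the 10 receptor genes higher in ipsilateral DRG (P2ry13) and 1 lower (P2rx6), beside 4.64% and 1.9% of all features it tested. The median log2 ratio of the 9 genes was 0.18, against 0.05 for all measured features, with 7 above 0 and 2 below. Of all measured DRG features, 7367 were above 0 and 5770 below.

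P2rx3, the nociceptor ATP channel, was at 231 FPKM in ipsilateral and 134 FPKM in contralateral DRG. The level was above that of 98.2% of measured features ipsilaterally and 96.1% contralaterally. Its log2 ratio was 0.78 and its plain ratio 1.72-fold, and its interval 1.19 to 2.49. The authors' deposited table does not call the difference (q = 0.0568). Its mm9 position is chromosome 2, 84836708 to 84875991. In the GENCODE M21 annotation (GRCm38) it shares 51 of 2789 exonic bases with Ssrp1 on the opposite strand (52.4 against 47.3 FPKM in DRG, 0.14). The mm9 position of Ssrp1 starts at 84877357, so the positions that go with these levels do not overlap.

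The sensory neuron markers mostly went the other way in the same libraries. Of the 14 markers, 12 were below a log2 ratio of 0, with a median of -0.67 and summed levels of 3403 FPKM ipsilaterally and 4083 contralaterally. Mrgprd, a beta-alanine receptor gene of the non-peptidergic nociceptors in which P2X3 is also found, was at 44.0 against 70.4 FPKM (-0.66), and Scn10a, a sodium channel gene of nociceptors, at 87.8 against 158 FPKM (-0.84). The 2 markers above 0 were the tubulin gene Tubb3 (0.65) and the GDNF receptor gene Ret (0.30). Per 1000 FPKM of summed sensory markers, P2rx3 had 68.0 FPKM ipsilaterally against 32.9 contralaterally. Prph, Nefh and Tubb3 gave 982, 610 and 976 FPKM of the ipsilateral sum and 1213, 990 and 621 of the contralateral. The scaling therefore rests largely on these genes. The part of cell makeup in the P2rx3 difference was not tested.

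**Figure D1:**
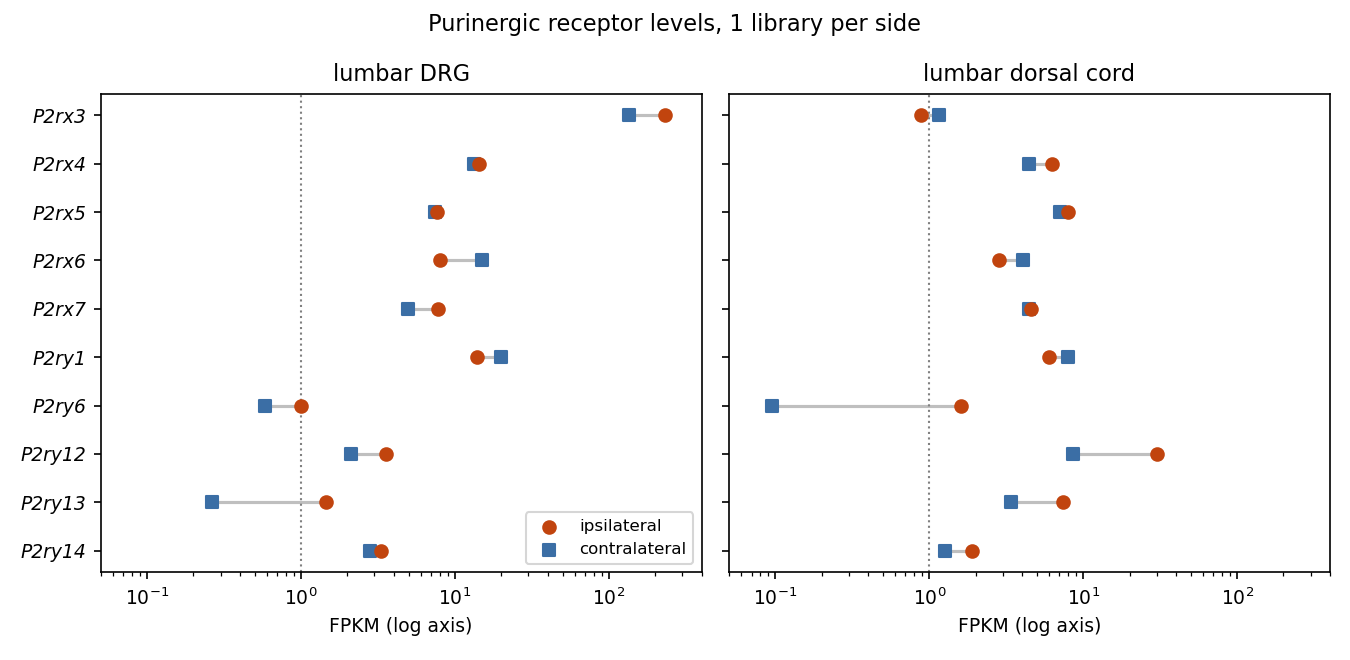
Level of each receptor gene in FPKM (log axis) in DRG (left) and dorsal cord (right), with circles for the ipsilateral and squares for the contralateral library, and a dotted line at 1 FPKM. P2rx3 is the highest gene in both DRG libraries (231 and 134 FPKM) and among the lowest in cord (0.878 and 1.16 FPKM), while P2ry12 leads in both cord libraries (30.2 and 8.63 FPKM).

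P2rx3 made up most of the P2X transcripts of the ganglia. It held 85.5% of the summed FPKM of the 7 P2X genes in ipsilateral and 75.5% in contralateral DRG, where the sums were 271 and 178 FPKM. P2rx2, whose product joins P2X3 in mixed channels, is not among the 10 genes and was at 1.21 FPKM ipsilaterally and 2.74 FPKM contralaterally (log2 ratio -0.76). P2rx2 and P2rx3 therefore had log2 ratios of opposite sign in DRG, and the authors' deposited table calls neither (q = 0.0526 for P2rx2).

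P2rx6, whose product assembles with other P2X subunits, was at 8.04 FPKM in ipsilateral and 14.9 FPKM in contralateral DRG. This was the lowest log2 ratio of the receptor genes (-0.82), and 1.71% of measured features were lower still. The plain ratio of 0.539 had an interval of 0.406 to 0.716, and the authors' deposited table calls it lower with q = 0.000992. Scaled to the sensory markers, P2rx6 was at 2.36 FPKM per 1000 ipsilaterally and 3.65 contralaterally. In the GENCODE M21 annotation (GRCm38), 554 of its 3995 exonic bases are shared with exons of Slc7a4, an amino acid transporter family gene on the opposite strand. Slc7a4 had levels of 2.32 against 3.43 FPKM in DRG (-0.42). The mm9 positions that go with these levels do not overlap, with P2rx6 ending at 17572105 and Slc7a4 starting at 17572110 on chromosome 16. The strand setting and annotation of the counting are not given.

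The sequence upstream of P2rx6, the receptor gene called lower in DRG, is shown here because this is the stretch in which motifs were searched. It covers the 250 bases before the start (RefSeq, GRCm38.p6, chr16:17561635-17561884, plus strand), with a match to GAGGAA on the opposite strand (read TTCCTC) in capitals.

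P2rx6: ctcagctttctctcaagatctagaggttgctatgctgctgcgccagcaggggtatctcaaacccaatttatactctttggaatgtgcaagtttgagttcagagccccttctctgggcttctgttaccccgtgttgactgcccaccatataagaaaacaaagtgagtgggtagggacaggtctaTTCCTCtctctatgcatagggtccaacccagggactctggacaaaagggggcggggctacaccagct

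P2rx4, P2rx5 and P2rx7 were less apart between the sides of the DRG. P2rx7, an ATP channel of macrophages and satellite glia that drives release of interleukin 1, had 7.81 FPKM ipsilaterally against 4.96 contralaterally (log2 ratio 0.56), with a fold interval of 1.08 to 2.30, and is not called in the authors' deposited table (q = 0.168). P2rx4, an ATP channel of macrophages and microglia, was at 14.4 against 13.3 FPKM (0.10), and its interval reached from 0.718 to 1.61. P2rx5, another ATP-gated channel gene, was at 7.63 against 7.47 FPKM (0.03), a log2 ratio that turned to -0.04 with median scaling and -0.02 with upper-quartile scaling. P2rx7 and P2rx4 are neighbours on mm9 chromosome 5, 16124 bases apart, and the difference between their ratios was not tested.

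Among the P2Y genes of the DRG, the ADP receptor gene P2ry1 was the highest, at 13.9 FPKM ipsilaterally and 19.8 contralaterally. Its log2 ratio was -0.48, and the interval of the fold was 0.491 to 1.01. The annotation places 992 of its 4291 exonic bases under Gm37035, on the opposite strand. P2ry12, an ADP receptor gene typical of microglia, was at 3.57 against 2.11 FPKM (0.55; interval 0.959 to 2.97). P2ry13, another ADP receptor gene, had 1.45 FPKM ipsilaterally against 0.263 contralaterally. Its log2 ratio was 0.95, while the plain ratio was 5.51-fold with an interval of 2.20 to 13.8, and the authors' deposited table calls it higher (q = 0.00808). Because both levels were low, the call by the 2-fold rule turned on the pseudocount, and with 0.1 FPKM the log2 ratio was 2.09. Per 1000 FPKM of microglia and macrophage markers, P2ry13 had 4.58 FPKM on the ipsilateral and 1.79 on the contralateral side, and P2ry12 at 11.3 and 14.3.

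P2ry14, the receptor gene for UDP-glucose, was at 3.32 against 2.81 FPKM in DRG (0.18; interval 0.68 to 2.06). P2ry6, the UDP receptor gene, had 0.996 FPKM ipsilaterally against 0.579 contralaterally, under 1 FPKM on both sides, and was the receptor gene left out of the count of 9. The 3 DRG genes P2ry12, P2ry13 and P2ry14 lie close together and share a locus in the deposited tables (mm9 chromosome 3, 58810899 to 59148178). Their log2 ratios of 0.55, 0.95 and 0.18 stand beside a median of 1.34 for the microglia and macrophage markers in DRG, and with a pseudocount of 0.1 FPKM that of P2ry13 was 2.09.

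**Figure D2:**
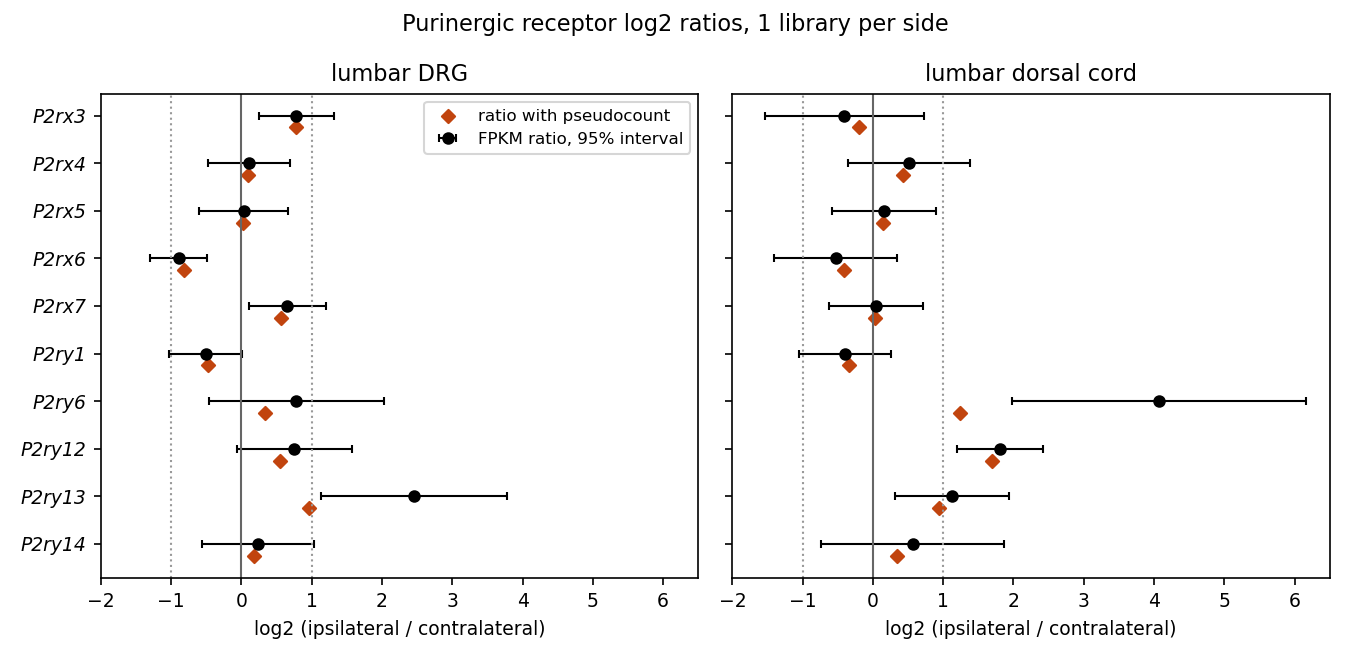
Log2 of ipsilateral over contralateral for each receptor gene in DRG (left) and dorsal cord (right). Black circles give the plain FPKM ratio with its 95% interval derived from the authors' deposited table, diamonds give the ratio with the pseudocount, and dotted lines mark 2-fold. The intervals of P2rx3, P2rx6, P2rx7 and P2ry13 in DRG and of P2ry6, P2ry12 and P2ry13 in cord stay on 1 side of 0.

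In dorsal cord, the receptor genes with the largest ratios were P2Y genes of microglia, P2ry12, P2ry6 and P2ry13. P2ry12 had the largest log2 ratio with a pseudocount of 1 or 3 FPKM, and P2ry6 with 0.1 FPKM (3.12, against 1.80 for P2ry12). All 10 receptor genes were measured. Of these, 2 were at least 2-fold higher (P2ry12 and P2ry6), where 4.46% of all measured features were, and 0 were at least 2-fold lower, where 1.64% of all were. The authors' deposited table calls the same 2 genes higher and 0 lower, beside 4.52% and 1.55% of all features it tested. The median log2 ratio was 0.24, against 0.02 for all measured features, with 7 genes above 0 and 3 below. Of all measured cord features, 6893 were above 0 and 6458 below.

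P2ry12 guides microglial processes towards ADP at sites of damage. It was at 30.2 FPKM in ipsilateral and 8.63 FPKM in contralateral cord, the highest of the 10 genes in both libraries. Its log2 ratio was 1.70, above that of 99.1% of measured features, and its plain ratio was 3.50-fold with an interval of 2.29 to 5.34. The authors' deposited table calls it higher with q = 2.72e-06. P2ry13 was at 7.43 against 3.40 FPKM (log2 ratio 0.94), a plain ratio of 2.18-fold with an interval of 1.24 to 3.84, and the authors' deposited table does not call it (q = 0.0782). P2ry6, which prompts microglia to engulf debris when UDP binds, was at 1.60 against 0.0947 FPKM. Its log2 ratio was 1.25, and the plain ratio of 16.8-fold has a wide interval, 3.96 to 71.7, because the contralateral level was near 0. The authors' deposited table calls P2ry6 higher (q = 0.00604).

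P2ry14 was at 1.89 against 1.27 FPKM in cord (log2 ratio 0.34), with an interval of the fold of 0.601 to 3.65. P2ry1, which other cells of the cord express as well, was lower in level ipsilaterally, at 6.03 against 7.92 FPKM (-0.34; interval 0.485 to 1.19). P2ry12 held 63.4% of the summed FPKM of the 8 P2Y genes in ipsilateral and 39.9% in contralateral cord, and P2ry1 held 12.6% and 36.6%. The sum itself was 47.7 FPKM ipsilaterally and 21.6 contralaterally.

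Set against the microglia and macrophage markers, these P2Y genes did not all keep the same proportion. Per 1000 FPKM of summed markers in cord, P2ry12 had 28.8 FPKM ipsilaterally against 34.5 contralaterally, and P2ry13 had 7.08 and 13.6. P2ry6 was at 1.52 and 0.379 by the same scaling. The log2 ratio of P2ry12 (1.70) lay below the marker median of 1.92. Among markers typical of resting microglia, Cx3cr1 (1.46), Tmem119 (1.39), Siglech (1.46) and Gpr34 (1.39) had lower ratios than P2ry12, and Csf1r (1.81), Fcrls (2.07) and Olfml3 (2.50) had higher ones. Aif1, which encodes the microglial protein Iba1, had the largest log2 ratio of the markers (3.28). The part of microglial number in the P2Y differences was not tested.

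**Figure D3:**
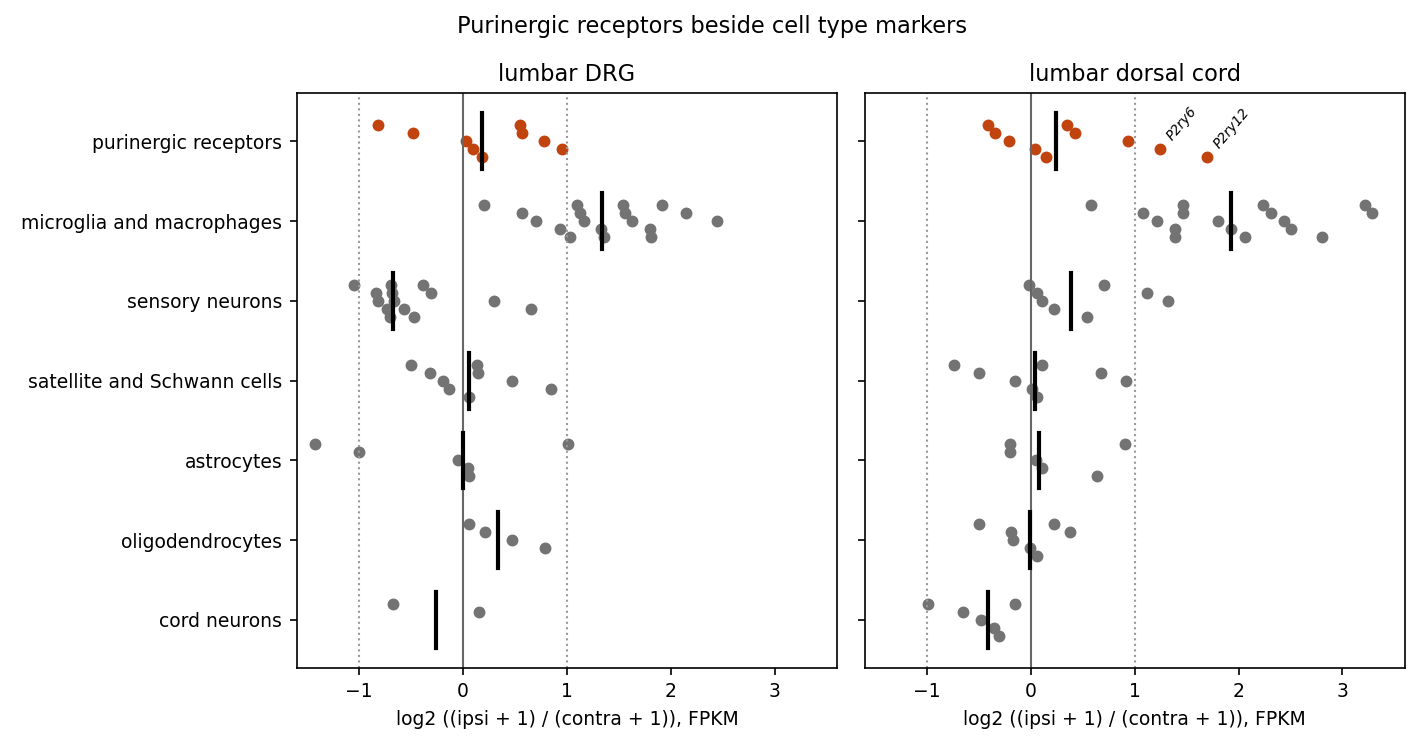
Log2 ratios with the pseudocount for the measured receptor genes (top row) and for 6 lists of cell type markers, in DRG (left) and dorsal cord (right). Each point is a gene, black bars are medians and dotted lines mark 2-fold. Every measured microglia and macrophage marker lies right of 0 in both tissues, and the receptor genes are spread on both sides of 0.

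The upstream sequences of P2ry12 and P2ry13 are shown because these neighbours had the largest cord levels among the genes with a log2 ratio near or above 1. Each covers the 250 bases before the gene's start on the minus strand of chromosome 3 (RefSeq, GRCm38.p6), at chr3:59262986-59263235 for P2ry12 and chr3:59210883-59211132 for P2ry13. Capitals mark a match to GAGGAA, a form that sites for the myeloid factor PU.1 can take.

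P2ry12: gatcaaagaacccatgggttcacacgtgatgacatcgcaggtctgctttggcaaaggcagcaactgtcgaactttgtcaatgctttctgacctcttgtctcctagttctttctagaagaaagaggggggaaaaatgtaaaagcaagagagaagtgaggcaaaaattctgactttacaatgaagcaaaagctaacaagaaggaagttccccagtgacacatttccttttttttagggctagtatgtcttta

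P2ry13: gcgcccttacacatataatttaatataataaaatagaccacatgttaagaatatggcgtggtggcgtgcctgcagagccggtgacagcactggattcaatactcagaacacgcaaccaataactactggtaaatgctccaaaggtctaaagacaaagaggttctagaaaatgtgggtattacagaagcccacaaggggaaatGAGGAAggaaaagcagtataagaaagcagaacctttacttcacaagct

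The motifs GAGGAA and TGANTCA were searched on both strands in the same stretch of every promoter of the table. In TGANTCA, a pattern that takes in the AP-1 site but is broader, N is any base. A promoter was found for 7 of the 10 receptor genes, in 11 windows because P2ry14 has 4 starts and P2rx7 has 2. None was found for P2rx3, P2rx5 and P2ry6, which were therefore not searched. GAGGAA was found in 6 of the 11 windows, against 23.3% of 32851 promoters, and TGANTCA in 3, against 6.75%. The windows with GAGGAA were those of P2rx6, P2ry13 and the 4 of P2ry14, of which a pair overlap and share a match. The letters GAGGAA do not occur in the P2ry12 window, and in the P2ry13 window the match starts 48 bases before the gene's start. Other forms of PU.1 sites were not searched in any window. TGANTCA was found in 1 window of P2rx7 (TGAGTCA) and 2 of P2ry14 (TGAATCA and TGACTCA), and no match to it overlapped a GAGGAA match. A match describes letters and is not a binding site.

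P2ry12, P2ry13 and P2ry14 lie on the minus strand within Med12l, a Mediator subunit gene on the plus strand, in the GENCODE M21 annotation. Only P2ry12 shares exonic bases with it, 9 of 2546. Med12l was at 10.5 FPKM in both ipsilateral and contralateral cord (log2 ratio 0.00) and at 6.92 against 9.24 FPKM in DRG (-0.37). The part of Med12l reads in the values of the P2Y genes was not tested. Gpr171, at the same locus, was at or below 0.0965 FPKM in all 4 libraries.

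The 5 P2X genes among the 10 receptor genes had log2 ratios from -0.41 to 0.43 in cord, while P2rx2 was at 0.420 against 1.32 FPKM (-0.71; interval 0.0939 to 1.08). P2rx4, known from spinal microglia after nerve injury, had 6.29 FPKM ipsilaterally against 4.42 contralaterally (0.43), and the interval of the fold was 0.781 to 2.59 in the authors' deposited table, which does not call it (q = 0.549). P2rx7 was at 4.58 against 4.44 FPKM (0.04; interval 0.648 to 1.64). Per 1000 FPKM of microglia and macrophage markers, P2rx4 had 6.00 FPKM on the ipsilateral and 17.7 on the contralateral side, and P2rx7 had 4.36 and 17.7. Both channel genes thus had a lower ratio than every measured microglia and macrophage marker in cord, the lowest of which was 0.58 (the F4/80 gene Emr1).

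P2rx5 was the highest P2X gene of the cord, at 7.95 FPKM ipsilaterally and 7.11 contralaterally (log2 ratio 0.14; interval of the fold 0.669 to 1.87). P2rx6 was at 2.84 against 4.09 FPKM (-0.41; interval 0.378 to 1.27). Its neighbour Slc7a4 was at 3.36 against 9.25 FPKM in cord (-1.23), and the authors' deposited table calls Slc7a4 lower (q = 0.00694). P2rx3 was at 0.878 FPKM in ipsilateral and 1.16 FPKM in contralateral cord, with a log2 ratio of -0.20 and an interval of 0.345 to 1.65. Its log2 ratios thus differed in sign between DRG (0.78) and cord, a difference that was not tested. The cord neuron markers were all 6 below 0 (median -0.41), while 8 measured sensory markers had a median of 0.39 in cord, and their part in these values was not tested. The P2X sum was nearly level, at 23.0 FPKM ipsilaterally and 22.5 contralaterally.

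**Figure D4:**
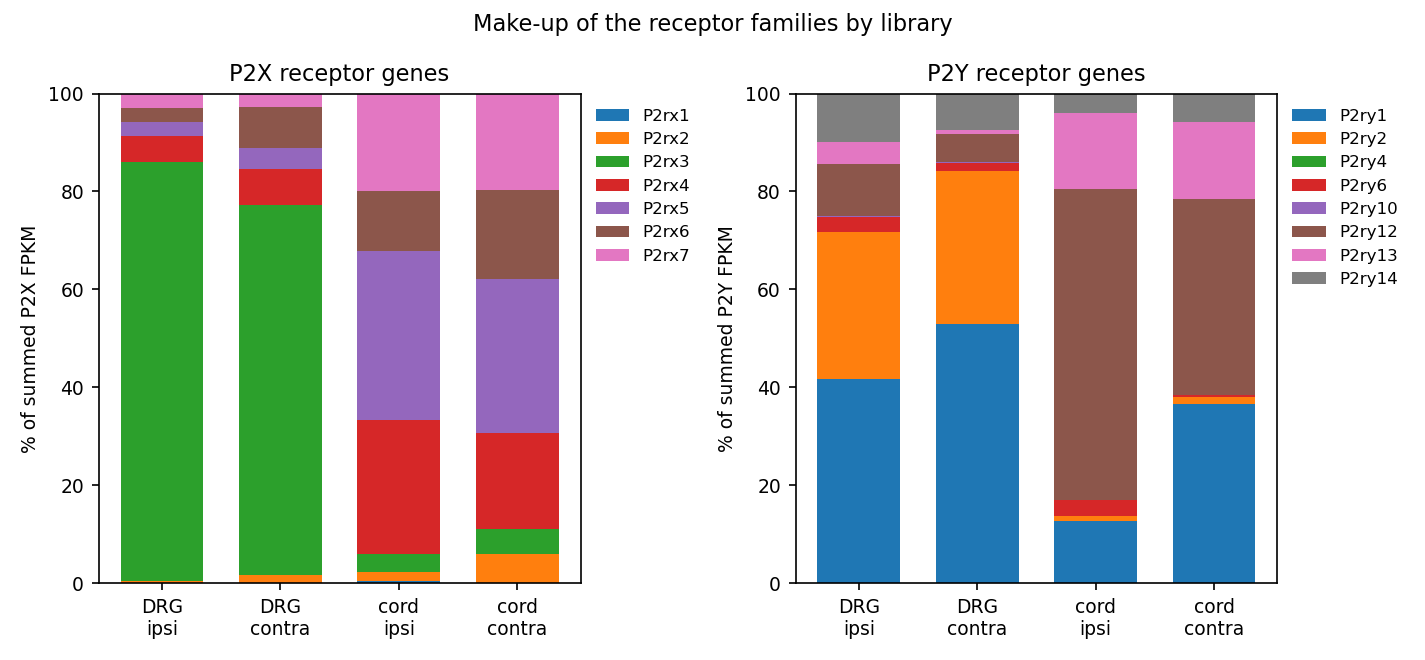
Share of each gene in the summed FPKM of its family, P2X (left) and P2Y (right), in the 4 libraries. P2rx3 fills 85.5% and 75.5% of the P2X sum in ipsilateral and contralateral DRG, and P2ry12 fills 63.4% and 39.9% of the P2Y sum in ipsilateral and contralateral cord.

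The signs of the log2 ratios were set side by side across the tissues. Of the 9 receptor genes measured in both, P2rx4, P2rx5, P2rx7, P2ry12, P2ry13 and P2ry14 had log2 ratios above 0 in DRG and cord, and P2rx6 and P2ry1 below 0 in both. Several signs rest on small ratios whose fold intervals span no difference. These include P2rx4 (0.718 to 1.61) and P2rx5 (0.657 to 1.59) in DRG and P2rx7 (0.648 to 1.64) in cord. The share of all features that keep their sign across tissues was not computed. P2rx3 alone differed in sign, apart from P2rx5, whose DRG ratio turned negative under median and upper-quartile scaling. The order of levels was unlike. In ipsilateral DRG the order was P2rx3, P2rx4, P2ry1, P2rx6, P2rx7, P2rx5, P2ry12, P2ry14, P2ry13 and P2ry6. In ipsilateral cord it was P2ry12, P2rx5, P2ry13, P2rx4, P2ry1, P2rx7, P2rx6, P2ry14, P2ry6 and P2rx3. Without replicates, the spread that would separate neighbours in these orders is unknown. The tables were normalised separately, so levels set across tissues are approximate.

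Genes whose pair of log2 ratios came closest to that of a receptor gene were sought among 12229 features measured in both tissues, by Euclidean distance. The nearest to P2rx3 were Fbln1 (a matrix protein gene, distance 0.01), Tet3 (a DNA demethylase gene, 0.02), Anks1b (0.02), Gm15645 (0.03) and Elmod1 (0.03). For P2ry12 they were Grn (progranulin, 0.07), Ptprc (the leukocyte antigen CD45, 0.08), Selplg (a selectin ligand gene, 0.10), Ctla2b (0.14) and 6230427J02Rik (0.14). For P2ry6, which was itself under 1 FPKM in DRG, the near genes included Ncf1 (an NADPH oxidase subunit gene, 0.03), 1110059E24Rik (0.04), Rps15 (0.05) and Ssh1 (0.05). The distance rests on 2 ratios from 4 libraries and describes likeness only.

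Related genes were followed in 5 lists covering other nucleotide and adenosine receptors, nucleotide-degrading enzymes, ATP release, adenosine handling, and P2X4 and P2X7 signalling. The lists held 48 genes in all. In DRG, 35 were measured, of which 2 were at least 2-fold higher and 0 lower, with a median log2 ratio of 0.14. In cord, 33 were measured, of which 5 were at least 2-fold higher and 0 lower, with a median of 0.13. The shares over all measured features were 3.04% higher and 0.784% lower in DRG, and 4.46% and 1.64% in cord. The authors' deposited table calls 3 higher and 1 lower in DRG, beside 4.64% and 1.9% of the features it tested. In cord it calls 6 higher and 0 lower, beside 4.52% and 1.55% of those tested. Some of the 48 genes, such as P2ry4 and Entpd8 in both tissues, were not tested and could not be called.

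Of the other nucleotide and adenosine receptor genes, 5 were measured in DRG, and the authors' deposited table calls 0 of the 9 in either tissue. It did not test P2rx1, P2ry4, P2ry10 and Adora3 in either tissue or P2ry2 in cord, so these could not be called. The 5 log2 ratios ran from -0.76 to -0.00 (median -0.21), with the lowest for P2rx2, followed by the adenosine A1 receptor gene Adora1, at 20.1 FPKM ipsilaterally and 31.3 contralaterally (-0.61). P2ry2, a receptor gene for ATP and UTP, was at 9.96 against 11.7 FPKM in DRG (-0.21). In cord 3 of the 9 were measured (median -0.29), and Adora1 was at 57.5 against 50.5 FPKM (0.18).

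The enzymes that break down extracellular nucleotides had 0 genes past 2-fold in either tissue, with medians of 0.06 in DRG and 0.14 in cord over 8 measured genes each. In DRG, 4 of the 8 were above 0 and 4 below. Among the lower values were Acpp and Entpd3, enzymes found in nociceptors. Acpp (prostatic acid phosphatase, which makes adenosine from AMP) was at 76.5 against 117 FPKM (-0.60). Entpd3 (which hydrolyses ATP and ADP) was at 25.8 against 43.4 FPKM (-0.73). Nt5e, another enzyme of the list, was nearly level at 19.0 against 19.8 FPKM (-0.05; interval 0.673 to 1.38). In cord, the ratios furthest from 0 were those of Enpp3, at 0.481 against 1.58 FPKM (-0.80; interval 0.114 to 0.807), and Enpp1, at 8.67 against 4.86 FPKM (0.72; interval 1.10 to 2.88). Entpd1, the CD39 gene of microglia and vessels, was at 7.08 against 4.66 FPKM (0.51; interval 0.958 to 2.40). The authors' deposited table calls none of the 10 enzymes in either tissue. It did not test Entpd8 in either tissue, Enpp3 in DRG or Acpp in cord, so these could not be called.

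Among ATP release genes, the pannexin gene Panx2 was at 8.10 FPKM in ipsilateral and 16.7 FPKM in contralateral DRG (-0.96), and the authors' deposited table calls it lower (q = 0.00592). Panx1, which forms ATP-permeable channels, was at 32.4 against 26.6 FPKM (0.27). In cord the authors' deposited table calls Lrrc8a, a volume-regulated anion channel gene, higher (q = 0.0418), at 21.8 against 12.4 FPKM (0.77). Slc17a9, the vesicular nucleotide transporter gene, stayed at or below 0.165 FPKM in all 4 libraries. The list's medians were 0.27 over 7 genes in DRG and -0.21 over 6 genes in cord.

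Of the adenosine handling genes, Ada, which encodes adenosine deaminase, was at 1.84 FPKM in ipsilateral cord and listed at 0 contralaterally (1.51), and the authors' deposited table calls it higher (q = 0.03). In DRG Ada was at 0.788 against 1.77 FPKM (-0.63). The medians were 0.06 over 6 genes in DRG and 0.48 over 6 genes in cord.

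In the list of P2X4 and P2X7 signalling, 2 of 9 measured genes were at least 2-fold higher in DRG (median 0.45) and 4 of 10 in cord (median 0.46), against 3.04% and 4.46% of all measured features. The DRG genes were Ctss, encoding the protease cathepsin S that P2X7 activation releases from microglia, at 32.7 against 10.5 FPKM (1.54), and Cx3cr1, encoding the receptor for fractalkine, at 6.35 against 1.93 FPKM (1.33). Both are also in the marker list of microglia and macrophages. The list holds Cx3cr1 as well as Irf5 and Irf8, which act upstream of P2rx4, so its counts are not a measure of signalling downstream of the channels. The authors' deposited table also calls the p38 kinase gene Mapk14 higher in DRG (q = 0.0367), at 28.9 against 20.9 FPKM (0.45).

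In cord, Ctss had 360 FPKM ipsilaterally against 71.9 contralaterally (2.31) and Cx3cr1 at 36.6 against 12.6 FPKM (1.46). Irf8, a transcription factor gene of myeloid cells known to drive P2rx4 expression through Irf5 in spinal microglia, was at 5.44 against 1.52 FPKM (1.36). Pycard, the inflammasome adaptor gene, was at 2.75 against 0.630 FPKM (1.20). The authors' deposited table calls all 4 higher. Bdnf, whose product microglia release when P2X4 opens, was at 2.22 against 2.24 FPKM (-0.01), and Il1b was listed at 0 in both cord libraries. In DRG, Il1b was at 0.825 against 0.136 FPKM, under 1 FPKM on both sides (interval 1.33 to 27.7), and is not called in the authors' deposited table (q = 0.170).

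**Figure D5:**
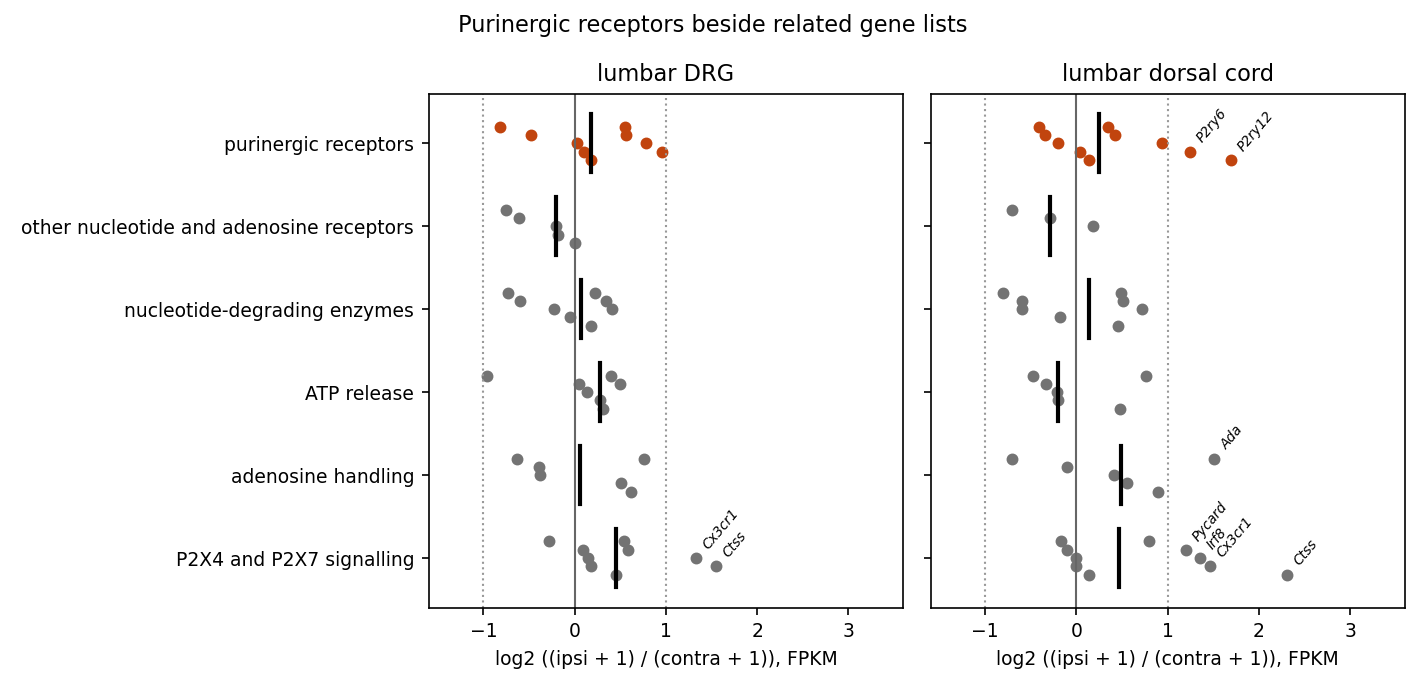
Log2 ratios with the pseudocount for the measured receptor genes (top row) and for the 5 related lists, in DRG (left) and dorsal cord (right). Points are genes, black bars are medians, dotted lines mark 2-fold, and genes past 2-fold are named. Cx3cr1 and Ctss pass 2-fold in both tissues, and P2ry6 and P2ry12 in cord.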

How the data were processed

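RNA was sequenced from 4 libraries, 1 per group. The labels' protocols name the QIAGEN RNeasy Mini Kit for RNA and the Epicentre ScriptSeq kit for libraries. TopHat 1.4.0, Cuffdiff 1.3.0 and build mm9 are listed per the submitters' processing notes. The annotation, filters and strand setting are not given in the sources used here. Per the file headers, each deposited table gives 1 FPKM value per library, normalised by the authors within a tissue. It also holds the authors' p-values and q-values (1 library against 1 library) and, as score columns in the deposited files, a log2 fold change and a test statistic. Columns were matched to sides by the library names inside the tables. The fold changes of the deposited cord table run contralateral over ipsilateral, and their sign was turned so that every ratio here is ipsilateral over contralateral. The number of unused sample columns was 0. Summed FPKM was 442298 and 431795 in ipsilateral and contralateral DRG, and 442196 and 425636 in ipsilateral and contralateral cord. Read depth is unknown, so no counting interval was computed.

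Log2 ratios were computed with Python 3.11.15, pandas 2.3.3 and numpy 2.4.6, with a pseudocount of 1 FPKM, and the calculation was tested on simulated data. Fold intervals used the log2 fold change and test statistic of the authors' deposited table, whose significance call corresponds to q up to 0.05. The members and lists were chosen with earlier results of these data known. Genes named outside the 10 receptors were those past 2-fold or called in the authors' deposited table, up to 4 per list and tissue, genes at the same locus or sharing exons, and the 5 nearest genes by ratio. Some genes that this rule selects are not reported here. P2rx2, P2ry2, Adora1, Acpp, Entpd1, Entpd3, Nt5e, Enpp1, Enpp3, Panx1, Slc17a9, Bdnf and Il1b were added after their values were seen. So were the markers named beside a receptor or in comparing the tissues. Promoter sequences came from RefSeq (GRCm38.p6). As alternatives, the pseudocount was set to 0.1 or 3 FPKM and the filter to none or 5 FPKM, besides median and upper-quartile scaling, the authors' calls, and their test status.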

Additional observations from a re-analysis of the deposited data

Results flagged for a closer look

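The log2 ratio of P2rx3 had opposite signs in the tissues, 0.78 in DRG and -0.20 in dorsal cord, which differ by 0.98. With 1 library per group this difference was not tested, and in cord the gene was at 0.878 FPKM ipsilaterally and 1.16 FPKM contralaterally, near the limit of 1 FPKM for a measured gene.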

How the results depend on the processing

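Of 80 recomputed log2 ratios of single receptor genes (2 pseudocounts and 2 scalings), 2 changed sign, those of P2rx5 in DRG under both scalings. The pseudocount mattered most where a level was near 0, with P2ry6 in cord at 3.12 and 0.57 and P2ry13 in DRG at 2.09 and 0.45 for 0.1 and 3 FPKM. With a pseudocount of 0.1 FPKM, 1 receptor gene was at least 2-fold higher in DRG instead of 0. In cord 3 were higher instead of 2, with P2ry13 at 1.10. With the same pseudocount, 3 related genes in DRG and 2 in cord were at least 2-fold lower instead of 0. The related genes counted as higher were then 3 in DRG and 7 in cord. With 3 FPKM, 1 receptor gene instead of 2 was higher in cord (P2ry12 at 1.51), and the related genes counted as higher were 1 in DRG and 2 in cord. The authors' calls gave 1 receptor gene higher and 1 lower in DRG, and 1 related gene lower in DRG. Median and upper-quartile scaling each gave 1 related gene lower in DRG. A filter at 5 FPKM left 1 receptor gene and 3 related genes higher in cord, and moved the cord medians to 0.14 for ATP release and 1.36 for P2X4 and P2X7 signalling. Without a filter the DRG median of adenosine handling was 0.43. Over all features, 400 were higher and 103 lower in DRG and 595 and 219 in cord. A pseudocount of 0.1 FPKM gave 679 and 259 in DRG and 964 and 481 in cord, and one of 3 FPKM gave 204 and 44 in DRG and 264 and 81 in cord. The authors' calls gave 649 and 266 in DRG, the 2-fold rule with the authors' call 337 and 63 in DRG and 389 and 93 in cord, and the 5 FPKM filter 273 and 68 in DRG and 373 and 130 in cord. No paired analysis was possible because each group holds 1 library, and for the same reason no library could be left out. The widest fold intervals were those of P2ry6, P2ry14 and P2rx3 in cord and P2ry13 and P2ry6 in DRG, each with a level under 2 FPKM on both sides.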
